A study of Mus musculus with 8 samples.

Results

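A set of 8895 positions, 6.54% of the 136069 measured, combined a crowded neighbourhood of measured positions with a high methylation level in every sample of the 4T1 mammary tumor model. A position, called a site here, was dense if at least 16 other measured sites lay within 250 bp on its chromosome, and it entered the set if its methylation level was at least 80% in all 8 samples. These sites, called methylated dense sites, made up 36.2% of the 24565 dense sites and are candidates for methylated CpG islands of the tumor line. The sites were chosen by their measured levels in all 8 samples, so those levels are a description and are not tested.

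The study used bisulfite sequencing to compare primary tumors with lung metastases of 4T1, a transplantable mammary carcinoma line of BALB/c mice. The 8 samples were 2 mammary tumors labelled MFP, 3 lung metastases labelled MFP and 3 labelled TVI, and the abbreviations are kept as given. All groups shared the cell line and the mouse strain, and no group of untransplanted cells or of normal tissue was among the samples. The labels give neither age, sex nor time of collection, and do not tie samples to animals, so that the spread behind each p-value may be technical. Each level is the fraction of calls at a site that were methylated, over all cells of a sample, so that a different mix of tumor and host cells and a different methylation per cell cannot be told apart. The deposited values hold no read counts, and the depth behind each level is unknown.

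In mammals, methylation is carried by cytosines that precede a guanine, and the maintenance methyltransferase DNMT1 copies the pattern to the new strand at each cell division. Stretches rich in these CG dinucleotides, the CpG islands, cover many gene starts and are mostly free of methylation in normal tissue. Cancer cells often gain methylation at a part of their islands, and methylation over a promoter island goes with a silent gene, whereas islands inside transcribed genes or far from promoters can be methylated in normal cells too.

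The positions were not those of the GRCm38 assembly, although the submitters' processing notes name mm10, and no genome of the build they follow was used here. Positions of sites and blocks are given as deposited. To reach gene starts all the same, the spacing of CG dinucleotides in RefSeq promoter windows (250 bases before to 50 after a start, GRCm38.p6) was laid over the spacing of the deposited sites, and 158 of 15961 windows searched fitted at a single place (the criteria are with the methods). Of those, 12 windows of 12 genes held methylated dense sites. Because 4T1 comes from BALB/c mice and the reference from C57BL/6J, single CG dinucleotides may differ.

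The 250 bases before 4 starts of named genes are shown because they hold from many to no CG of the set. Predicted genes reached a higher share, up to 12 of 13 at Gm16059, but their starts may lie inside other genes, which was not tested. The coordinates given with these sequences are those of GRCm38.p6, not the deposited ones. The sequences are printed 5′ to 3′ along the gene, with CG in capitals where the matched site was a methylated dense site. The first is Cldn5, which encodes the tight junction protein claudin-5 of endothelium and epithelium (chr16:18776597-18776846, plus strand), with 8 of 12 CG in the set. The second is Tiam1, a guanine nucleotide exchange factor for the GTPase RAC1 (chr16:89818353-89818602, minus strand), with 3 of 9. The third is Tubgcp6, a component of the gamma-tubulin complex that nucleates microtubules (chr15:89123151-89123400, minus strand), with 2 of 17, both at its far end. The fourth is Fzd1, a frizzled receptor for Wnt ligands (chr5:4758217-4758466, minus strand), with 0 of 12. Small letters do not mean unmethylated, because a CG may be unmatched or its site not dense. In the Tiam1 window 4 of 9 matched sites were dense, and the lowest site averaged 62.1%. In the Cldn5 window 9 of 11 were dense, and the lowest averaged 80.6%. Low sites did occur in the other windows, down to 0.203% at Tubgcp6 and from 6.27% to 25.2% at Fzd1.
Cldn5: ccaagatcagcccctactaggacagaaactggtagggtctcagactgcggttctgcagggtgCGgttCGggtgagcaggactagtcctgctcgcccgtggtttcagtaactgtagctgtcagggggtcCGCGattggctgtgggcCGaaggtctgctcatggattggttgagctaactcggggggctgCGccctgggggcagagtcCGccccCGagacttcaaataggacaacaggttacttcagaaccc
Tiam1: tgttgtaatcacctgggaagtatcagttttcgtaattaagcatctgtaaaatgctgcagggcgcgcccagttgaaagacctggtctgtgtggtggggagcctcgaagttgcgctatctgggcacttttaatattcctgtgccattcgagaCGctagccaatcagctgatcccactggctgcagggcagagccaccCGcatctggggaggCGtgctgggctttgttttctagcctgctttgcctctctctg
Tubgcp6: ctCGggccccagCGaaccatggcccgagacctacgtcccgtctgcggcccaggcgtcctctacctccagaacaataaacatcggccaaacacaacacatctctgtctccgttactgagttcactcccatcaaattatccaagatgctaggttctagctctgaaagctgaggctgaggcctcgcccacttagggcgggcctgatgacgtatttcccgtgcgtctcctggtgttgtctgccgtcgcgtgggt
Fzd1: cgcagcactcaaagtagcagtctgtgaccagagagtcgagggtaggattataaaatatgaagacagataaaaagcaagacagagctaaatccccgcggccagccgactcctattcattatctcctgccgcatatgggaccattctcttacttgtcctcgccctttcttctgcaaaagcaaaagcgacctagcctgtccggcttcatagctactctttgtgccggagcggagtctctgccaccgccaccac

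Across the 8895 sites the mean level over the 8 samples had a median of 95.5%, with 5% of sites below 90.6% and 5% above 97.8%. The sites therefore sat far above the limit that chose them. The lowest of a site's 8 samples had a median of 91.7%. At 6035 sites (67.8%) all samples were at 90% or more, and at 909 (10.2%) all were at 95% or more. No site was at 100% in every sample. The spread was small: the highest and lowest samples of a site differed by a median of 6.68 points, and the pooled SD within groups had a median of 2.17 points.

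Over the set, the primary tumors averaged 94.8% and 94.7%. The MFP metastases averaged 95.1%, 95.1% and 95.2%, and the TVI metastases 95.3%, 95.1% and 95.3%. All 6 metastases lay above both tumors, by less than a point, and the metastasis groups overlapped. Over all 136069 sites the same samples averaged between 66.6% and 68.7%, with the tumors lowest and the TVI metastases highest. At the dense sites that were neither in the set nor at 20% or less in every sample, the order was another one: 59.9% and 59.1% in the tumors, 61.1%, 60.9% and 60.9% in the MFP metastases, and 55.7%, 53.6% and 54.3% in the TVI metastases. There the TVI samples lay below all others, with no overlap.

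**Figure D1:**
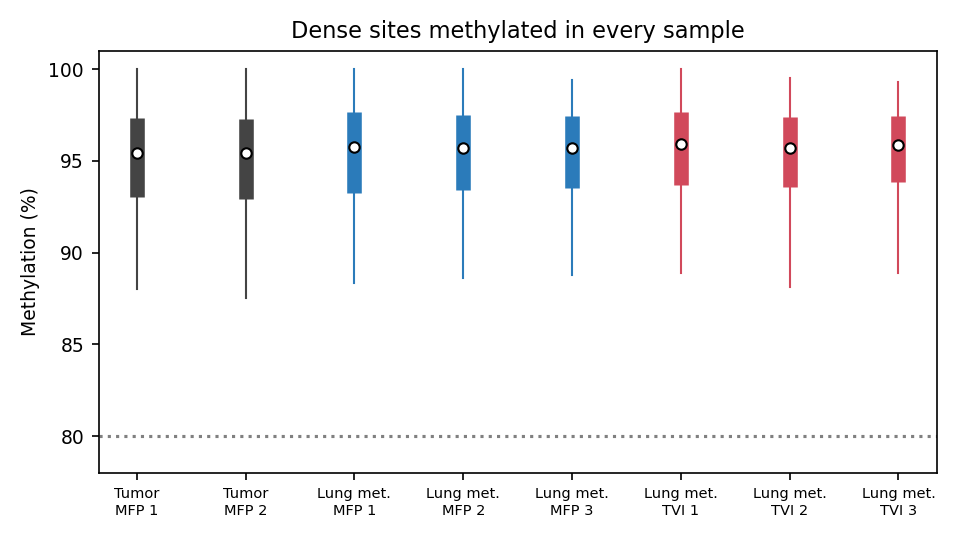
Level of the 8895 methylated dense sites in each of the 8 samples, in percent: circles are medians over sites, thick bars run from the 25th to the 75th percentile, thin lines from the 5th to the 95th, and the dotted line is the 80% limit of the rule. The medians lie between 95.4% and 95.9%, and the axis starts above 0.

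The dense sites fell into 3 kinds. Beside the 8895 methylated ones, 11808 (48.1%) were at 20% or less in all samples, here called unmethylated dense sites, and 3862 (15.7%) were neither. Methylated sites were the less crowded kind. They had a median of 19 other sites within 250 bp, against 23 for the unmethylated ones, and their median distance to the nearest site was 8 bp against 6 bp. Their share of dense sites was 49.98% at 16 to 17 other sites and was lower in each denser class, down to 16.7% at 41 to 65. The unmethylated share went from 31.6% to 75.2% over the same classes. Among the sites that were not dense, 66522 (59.7%) were at 80% or more in all samples, so that high levels were more common outside dense stretches than in them.

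Methylated dense sites were found on 18 of the 20 chromosomes. Chromosome 11 held 1355, chromosome 8 held 1130 and chromosome 5 held 1015, which were also among the chromosomes with the most measured sites. As a share of dense sites, they were most common on chromosome 4 (50.9%) and chromosome 16 (47.0%), and least common on chromosome 7 (21.6%) and chromosome 13 (15.9%). Chromosome 18 held 61 dense sites, all of them unmethylated, and chromosome X held no dense site. How the covered positions were chosen is not given in the sources used here, so these shares describe the covered positions and not whole chromosomes.

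Joined at gaps of up to 250 bp, the dense sites formed 1240 blocks. Methylated dense sites lay in 702 of them, and 294 blocks held nothing else. In 543 blocks of at least 3 sites, they were 50% or more of the sites, and these blocks, called mostly methylated blocks, held 8368 of the 8895 sites. They had a median of 14 dense sites over 274 bp, against 23 over 365 bp in the 427 mostly unmethylated blocks. The set was spread over many short stretches: the 10 blocks with the most methylated dense sites held 795 of them, or 8.94%.

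The block with the most lay on chromosome 15 at 85860860 to 85863648, where 141 of 151 dense sites over 2789 bp were methylated in every sample. A block on chromosome 19 at 5654117 to 5655532 had 88 of 92, one on chromosome 16 at 76292000 to 76293966 had 74 of 75, and one on chromosome 8 at 111315969 to 111317117 had 61 of 62. All dense sites were in the set in a block of 61 on chromosome 1 at 64781272 to 64782348 and in one of 58 on chromosome 17 at 56562154 to 56563568. Others were mixed: the block with the second most, on chromosome 11 at 102466294 to 102467884, had 95 of 137 in the set and 28 unmethylated sites, and one on chromosome 5 at 134692015 to 134693559 had 81 of 94. In the block on chromosome 15 the level was between 94.1% and 95.2% in the 8 samples. The rule limits how far blocks chosen for their methylated dense sites can differ. In the limma test described below, 28.9% of all dense blocks passed between TVI and MFP metastases, and 29.4% between TVI metastases and tumors. None of the 10 blocks with the most methylated dense sites passed in the first comparison, with limma adjusted p from 0.0797 to 0.808. Between TVI metastases and tumors, 3 of them were higher in TVI metastases: those on chromosome 11 at 102466294 (3.16 points, adjusted p = 0.0406) and chromosome 5 at 134692015 (1.61 points, adjusted p = 0.0337), and one on chromosome 2 at 131386773 (2.03 points, adjusted p = 0.0233).

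Most methylated dense sites lay far from unmethylated ones: the median distance to the nearest unmethylated dense site was 21887 bp. Both kinds occurred in 76 of the 702 blocks, and 874 methylated dense sites (9.83%) had an unmethylated dense site within 500 bp. In those blocks the border could be short. On chromosome 19, in a block from 45819979 to 45821062 with 31 methylated and 9 unmethylated sites, the closest pair was 31 bp apart with no site between: position 45820678 averaged 90.1% and position 45820709 averaged 11.1%. On chromosome 11, in a block from 102466294 to 102467884 with 95 methylated and 28 unmethylated sites, a drop from 92.1% to 5.88% took 75 bp, with 4 sites between. On chromosome 15, in the block of the Tubgcp6 start, it took 69 bp, from 95.03% to 7.08%. A block on chromosome 8 from 73904157 with 20 methylated and 43 unmethylated sites had its closest pair 242 bp apart, and one on chromosome 19 from 6067515, which holds the start of the sterol reductase gene Tm7sf2, had it 84 bp apart. The blocks were chosen for holding both kinds, so the drops are a description.

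Measured sites that were not dense also had high levels close to the set. Within 25 bp of a methylated dense site they averaged 93.2%, and from 1000 to 2000 bp away 77.7%. Around unmethylated dense sites the corresponding averages were 4.95% and 68.4%. Sites close together share reads. Proximity to either kind went with that kind's level, and the 2 averages came within 10 points of each other at the largest distance. Dense sites outside the set averaged 77.0% within 25 bp of it and 10.5% from 1000 to 2000 bp away, a mean that leaves out sites at 80% or more in all samples by construction.

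**Figure D2:**
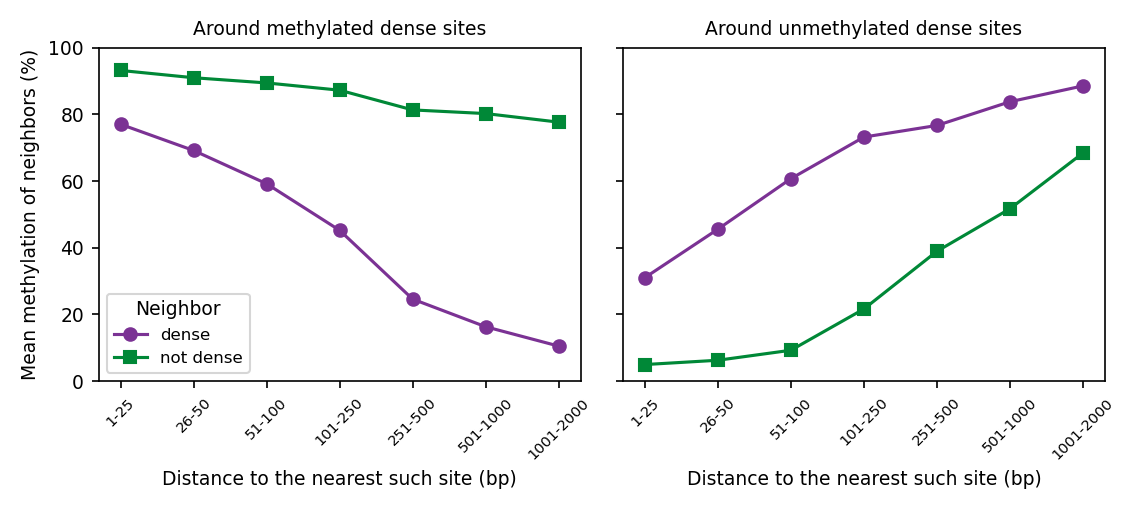
Mean level in percent of sites outside the named kind, by distance in bp from the nearest methylated dense site (left) or unmethylated dense site (right), over all samples, with dense and not dense neighbours apart. Neighbours that were not dense went from 93.2% to 77.7% with distance on the left, and from 4.95% to 68.4% on the right.

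Of the 158 matched promoter windows, 125 averaged 20% or less, 18 averaged 80% or more and 15 lay between. The 12 windows with methylated dense sites held 105 of them. Of the 12 genes, 8 are predicted gene models with little known function, and 4 have names: Cldn5, Tiam1, Tubgcp6 and the homeobox gene Hoxa10. The windows of the 4 named genes differed in the ratio of observed CG to that expected from their C and G content. This ratio was 0.476 at Cldn5, 0.470 at Tiam1, 0.596 at Hoxa10 and 0.848 at Tubgcp6. None of these windows was tested for being a CpG island, and holding sites of the set does not show that it is one. Whether the starts of the predicted models act as promoters or lie inside other genes was not tested, so their levels may be those of gene bodies. Matched windows are not a sample of all starts, because only windows with at least 8 CG dinucleotides and full enough coverage could match.

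At Cldn5, 11 of 12 CG dinucleotides of the window were matched and averaged 92.9%. The tumors were at 90.9% and 91.8%, the MFP metastases at 93.6%, 92.2% and 93.8%, and the TVI metastases at 93.8%, 94.2% and 92.9%. The start of this endothelial and epithelial junction gene was thus methylated in every sample, and both tumors lay below all metastases. The set went on downstream of it: 43 methylated dense sites lay from -188 to 1098 bp around the start, in 2 blocks.

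At Tiam1, the 9 matched sites averaged 88.5%, between 85.5% and 91.0% in the 8 samples, and the groups overlapped. Its 32 methylated dense sites ran from -99 to 500 bp around the start, in a block of 33 dense sites on chromosome 16 at 89818098 to 89818702. Within 3 kb, dense sites themselves lay mostly behind the start, with 29 downstream and 4 upstream. Of these, 29 and 3 were in the set, so the split is in where dense sites lie.

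At Tubgcp6 the window averaged 18.2%, with sites from 0.203% to 95.03%. Its tumors were at 16.96% and 14.9%, the MFP metastases at 16.4%, 16.8% and 14.97%, and the TVI metastases at 21.8%, 22.1% and 21.6%. Here 11 methylated dense sites lay at -581 to -237 bp from the start, and 52 unmethylated ones shared the block. The 2 capitals at the left end of the printed sequence mark where the methylated side ends.

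At Hoxa10, which encodes a transcription factor of body patterning, a single site was in the set and the window averaged 68.4%. The tumors were at 57.8% and 58.6%, the MFP metastases at 62.7%, 58.7% and 59.4%, and the TVI metastases at 79.6%, 85.6% and 84.5%. The TVI samples lay above all others with no overlap, and that single site was higher in TVI than in MFP metastases in the test below. The dense block at this start, with 1 of 54 dense sites in the set, was mostly low. It averaged 11.7% in the tumors, 12.3% in the MFP metastases and 16.2% in the TVI metastases.

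Among the predicted genes, Gm38485 had 14 matched sites and all were in the set, averaging 95.8%. Gm42232 had 18 matched sites, 12 of them in the set. Its tumors were at 95.1% and 97.1%, the MFP metastases at 94.7%, 96.1% and 96.7%, and the TVI metastases at 91.1%, 87.0% and 85.8%, below all others. The whole block of this start, with 40 of 69 dense sites in the set, fell by 7.62 points ± 0.778 (SE) in TVI against MFP metastases (limma, adjusted p = 8.55e-05). Gm31954, with 10, went the other way, from between 88.1% and 90.4% in tumors and MFP metastases to between 93.8% and 94.8% in TVI metastases, although its whole block fell by 4.71 points ± 0.729 (SE) against MFP metastases (limma, adjusted p = 0.00101). The other 5 predicted genes held from 8 to 14 methylated dense sites each and averaged between 82.0% and 94.1%.

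The 125 starts that averaged 20% or less, in 117 genes, show where the set lies around a start of low mean level. The mean is over sites and samples, so single sites or samples can lie above 20%, as at Tubgcp6 and Fzd1. A methylated dense site lay within 3 kb of 25 of these starts, 12 upstream and 13 downstream, at a median distance of 1666 bp and at the nearest 237 bp. Neighbouring starts share sites in these counts. The same site on chromosome 19 at 7069894 counts downstream of Gm35838 and Nudt22 and upstream of Dnajc4 and Trpt1. Another, on chromosome 2 at 11424828, counts downstream of Gm52500 and upstream of Pfkfb3. The shares that follow are around 1 start per gene, 117 in all. Over the whole 3 kb, methylated dense sites were 164 of 2828 dense sites downstream (5.80%) and 94 of 2059 upstream (4.57%). Few genes held them: 76 of the 164 lay at Fzd1 and 26 at Selenom. From 2000 to 3000 bp downstream of these starts, 92 of 128 dense sites (71.9%) were methylated in every sample, and from 2000 to 3000 bp upstream 53 of 116 (45.7%). From 500 to 1000 bp the shares were 0.797% downstream and 1.48% upstream. The low share next to the starts is fixed by their choice, whereas the shares farther out are not, and each site was counted once, at its nearest start.

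The frizzled gene Fzd1 shows the arrangement on a single gene. Its window averaged 14.5%, and a block on chromosome 5 at 4755550 to 4757048, which runs from 1169 to 2667 bp downstream of the start, had 76 of 77 dense sites in the set. The window itself was at 7.19% and 6.92% in the tumors, 4.89%, 6.77% and 7.89% in the MFP metastases, and 26.2%, 32.6% and 23.9% in the TVI metastases. The window was higher in all TVI samples than in the other samples, but it was not tested. The downstream block had a difference of -0.617 points between TVI and MFP metastases, with a limma adjusted p of 0.45. The rule limits how far a block with 76 of 77 sites in the set can differ, so nothing is read from this contrast. Selenom, which encodes a selenoprotein, had 26 methylated dense sites from 2216 to 2976 bp downstream of a start at 1.46%. The immediate early gene Fos had 3, between 1008 and 1053 bp downstream of a start at 1.14%.

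**Figure D3:**
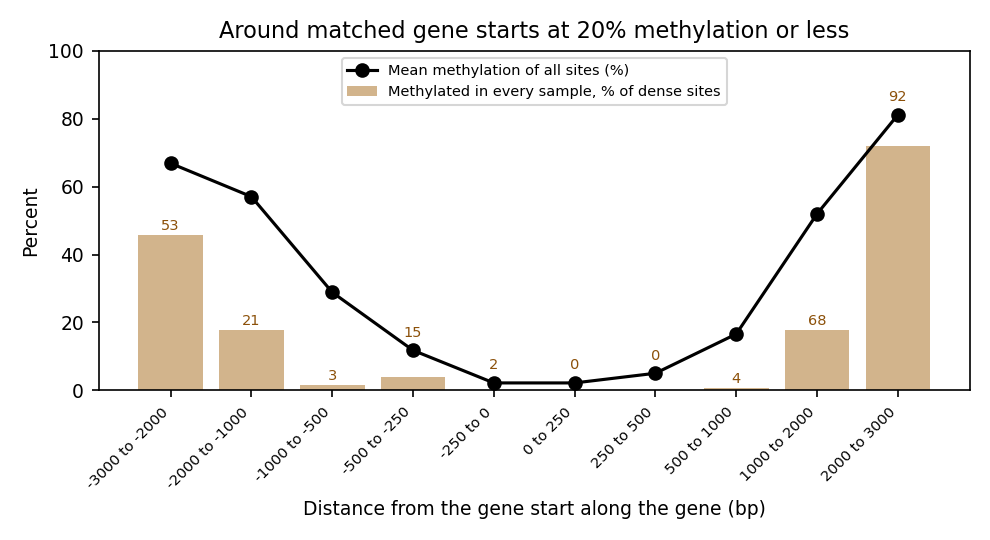
Distance from the 125 gene starts at 20% or less, in bp along the gene, against the share of dense sites that were methylated in every sample (bars, with the number of such sites) and the mean level of all sites (line), both in percent. The share was 45.7% at the upstream end, at most 4.08% within 1000 bp of the start and 71.9% at the downstream end.

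Some methylated dense sites lay in arrays of evenly spaced sites. Blocks of at least 20 sites were searched for a spacing of 15 to 400 bp that recurred. Of 509 blocks searched, 44 had at least 10 pairs at their best spacing. Of these, 3 blocks stood apart and were singled out after their values were seen. Among the others, the highest share of sites paired at the best spacing was 25.6%. On chromosome 12 at 3930252 to 3930622, 36 of 40 sites that could pair (90%) had another site exactly 35 bp on. On chromosome 12 at 86557615 to 86558135, 25 of 32 (78.1%) had one 26 bp on, and on chromosome 17 at 56562154 to 56563568, 25 of 54 (46.3%) had one 54 bp on. Such spacing is what a tandem repeat with CG dinucleotides in each copy gives, and no sequence of these blocks was read here.

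The block with 26 bp spacing has its methylated dense sites at -2817 to -2314 bp from the start of Eif2b2, a subunit gene of a translation initiation factor. Its sites fell mainly on 2 positions of the 26 bp unit, 9 bp apart, and the level differed between them. The first position had 18 sites with a median of 81.4%, 7 of them in the set, and the second had 16 sites with a median of 93.6%, 14 of them in the set. In the tumors the first position averaged 78.2% and 81.3% and the second 92.6% and 91.6%. In the MFP metastases the first was at 79.2%, 78.4% and 80.1%, against 91.1%, 92.5% and 92.2%, and in the TVI metastases at 85.2%, 86.2% and 86.3%, against 91.4%, 92.2% and 92.6%. The first position was thus below the second in all 8 samples, and the TVI samples lay above the others at the first position, whereas the groups overlapped at the second. Reads of repeat copies are hard to place, and what part this has in the levels was not tested.

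**Figure D4:**
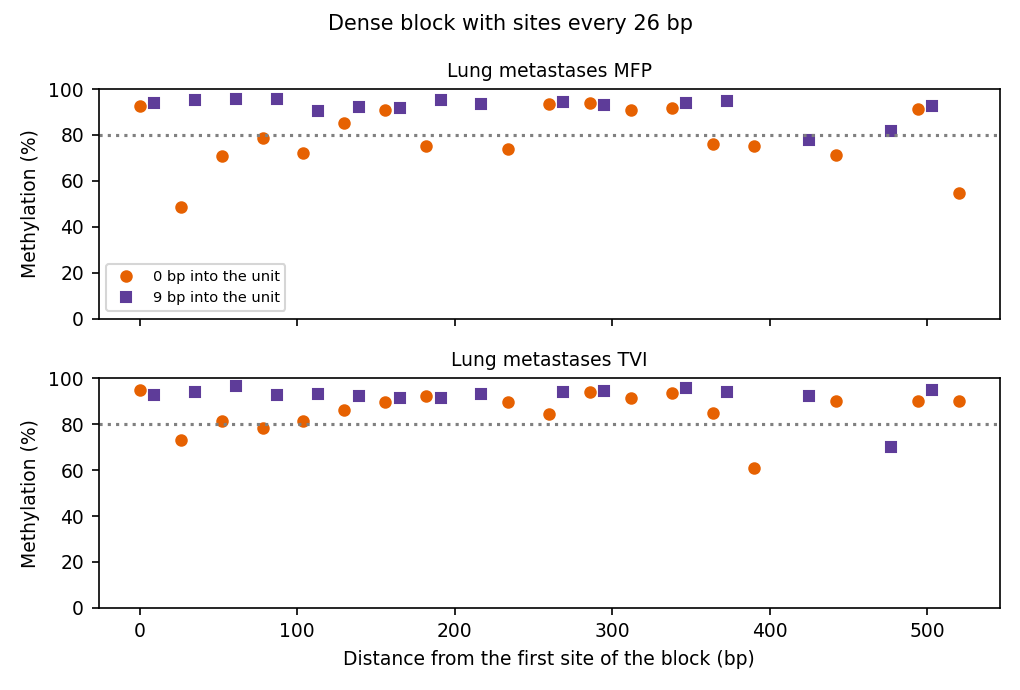
Mean level in percent of each site in the block with 26 bp spacing, in MFP metastases (top) and TVI metastases (bottom), against its distance in bp from the first site. Circles are sites at the first position of the unit and squares sites 9 bp further on, and the dotted line is at 80%: the squares had a median of 93.6% over all samples and the circles 81.4%, with a wider scatter.

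The comparison of TVI with MFP lung metastases asks whether metastases of the 2 labels differ. Fractions at all sites were fitted together with limma, and a site was called at a Benjamini-Hochberg adjusted p under 0.05. Of 135914 sites tested, 16.9% were called (10.4% higher and 6.53% lower in TVI metastases). Of the methylated dense sites 328 (3.69%) were called, 105 higher and 223 lower. The higher calls numbered 60, 42 and 41 without TVI metastasis 1, 2 and 3, and the lower calls 223, 184 and 181. The rule keeps every difference in the set within 20 points, so nothing is read from the lower share. The median difference was 0.17 points in the set and 0.38 over all sites. The called sites lay in 182 blocks.

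The largest falls among called sites were on chromosome 2 at 25145794, chromosome 10 at 127003608 and chromosome 9 at 107579536. At the first, the MFP metastases were at 100%, 100% and 98.0%, the tumors at 94.6% and 97.4%, and the TVI metastases at 81.03%, 82.8% and 80.95%. At the third, the MFP metastases were at 99.4%, 97.7% and 98.97%, the tumors at 96.3% and 96.6%, and the TVI metastases at 85.1%, 81.9% and 81.4%. At both, the TVI samples alone lay low, close to the limit of the rule. The largest rises were on chromosome 1 at 82286382, chromosome 19 at 4867863 and chromosome 2 at 172704890. The site on chromosome 19 was at 87.1%, 86.0% and 86.9% in MFP metastases and at 97.9%, 99.2% and 99.2% in TVI metastases, with the tumors at 92.2% and 97.4%. There the MFP metastases were the low samples.

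Whole blocks moved too. Among the 1097 dense blocks tested, 28.9% were called between TVI and MFP metastases (15.2% higher and 13.7% lower), and of the 543 mostly methylated blocks 113 were, 77 higher and 36 lower in TVI metastases. In the 231 blocks of at least 3 sites that held methylated dense sites and no others, 6 were called, 4 higher and 2 lower, under the same limit of 20 points.

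On chromosome 5 at 141082243 to 141083017, 28 of 41 dense sites were in the set. The block averaged 76.7% and 78.1% in the tumors, 76.3%, 77.8% and 78.02% in the MFP metastases, and 92.3%, 93.8% and 94.4% in the TVI metastases. It rose by 16.1 points ± 0.828 (SE) in TVI against MFP metastases (limma, adjusted p = 2.96e-06), and the TVI samples did not overlap the others. Its 28 methylated dense sites averaged 95.2% in MFP and 96.6% in TVI metastases, and its 13 other sites 38.9% and 86.9%. That split follows from the rule, which keeps any site below 80% in a sample out of the set.

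On chromosome 1 at 64782806 to 64783277, 14 of 27 dense sites were in the set. The tumors averaged 86.3% and 86.1%, the MFP metastases 89.98%, 89.8% and 86.8%, and the TVI metastases 74.5%, 71.4% and 70.7%. The block fell by 16.6 points ± 1.21 (SE) in TVI against MFP metastases (limma, adjusted p = 1.73e-05). Its methylated dense sites averaged 96.6% and 94.1%, and the others 80.4% and 48.6%. Within 500 bp of it lies the block of 61 sites named above, all of them in the set, whose difference was -0.229 points (limma, adjusted p = 0.777). The rule limits how far such a block can differ, so the contrast between the neighbours is a description.

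On chromosome 8 at 125951215 to 125952674, 41 of 70 dense sites were in the set, and here many of those sites themselves differed. The block averaged 92.2% and 92.4% in the tumors, 92.0%, 92.4% and 92.6% in the MFP metastases, and 85.8%, 79.4% and 81.7% in the TVI metastases. Its methylated dense sites averaged 95.5% in the tumors, 95.5% in MFP and 88.1% in TVI metastases, and 33 of the 41 were called lower in TVI than in MFP metastases, the most of any block. The neighbouring block from 125953472 had the next most, with 15. The TVI samples varied more among themselves than the other groups in the first block, with an SD of 3.25 points against 0.285 in MFP metastases.

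**Figure D5:**
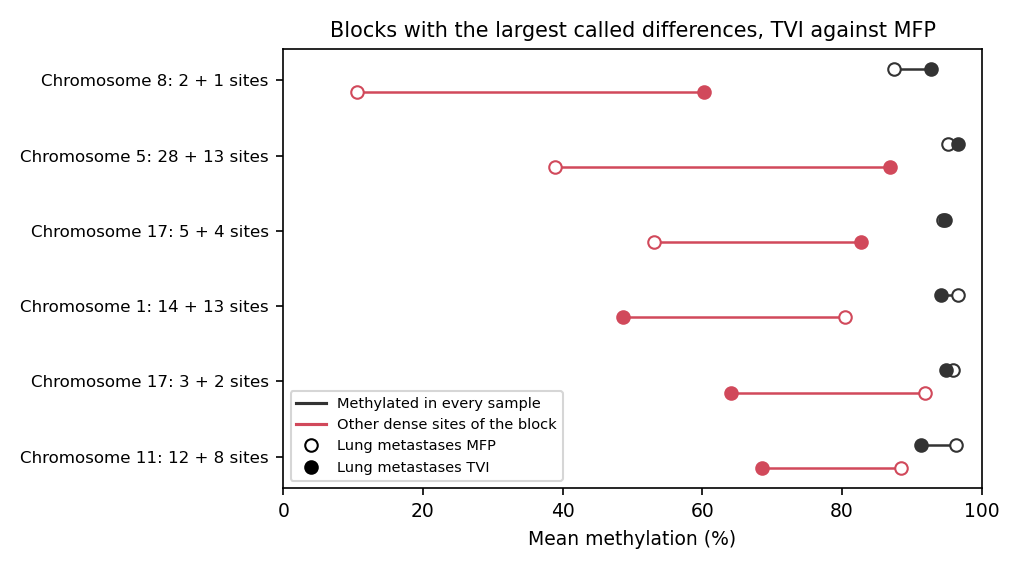
Mean level in percent in MFP metastases (open circles) and TVI metastases (filled circles) in the 6 blocks named for the largest called differences between them, with methylated dense sites (dark) and the other dense sites of a block (red) apart, and the number of each beside the chromosome. In the block on chromosome 5 the other sites went from 38.9% to 86.9% and the methylated dense sites from 95.2% to 96.6%.

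MFP metastases against primary tumors compares metastases with tumors of the same label. A single methylated dense site was called, against 0.0464% of all sites (0.0427% higher and 0.00368% lower), and 728 had an unadjusted p under 0.05. It lay on chromosome 19 at 6070666 and was at 83.3% and 82.4% in the tumors, 97.2%, 94.7% and 97.9% in the MFP metastases, and 100% in each TVI metastasis, a rise of 13.8 points (limma, adjusted p = 0.0265). The tumors were the low samples, and the call was lost when any single sample was left out (adjusted p from 0.0553 to 0.103). No mostly methylated block was called by limma, against 0.365% of all dense blocks, with 59 at an unadjusted p under 0.05.

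TVI metastases against primary tumors, which shares its samples with the comparisons above, called 349 methylated dense sites, 180 higher and 169 lower, against 16.6% of all sites (11.4% higher and 5.24% lower). The largest rises were at the same site on chromosome 19, at 8620833 on chromosome 8 and at 5762320 on chromosome 11. The last was at 81.3% and 81.2% in the tumors, 87.5%, 84.4% and 85.5% in the MFP metastases, and 95.5%, 95.2% and 95.6% in the TVI metastases, so that the MFP samples lay between. The largest falls were on chromosome 2 at 11424828 and 25145794 and on chromosome 11 at 59077885. Of the mostly methylated blocks 128 were called, 100 higher and 28 lower, against 29.4% of all dense blocks (18.1% higher and 11.3% lower). The split depended on the scale: with quantile normalization 79 sites were higher and 223 lower, and 63 blocks higher and 38 lower, and on a log2 ratio scale 114 sites were higher and 163 lower. It depended on single samples too, with 198 higher and 70 lower without tumor 1, and 183 and 63 without tumor 2. Without TVI metastasis 1, 2 and 3 the higher calls numbered 100, 106 and 91 and the lower ones 173, 131 and 124.

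With both metastasis labels pooled against the primary tumors, 110 methylated dense sites were called, 95 higher and 15 lower, against 6.74% of all sites (5.12% higher and 1.62% lower). Of the mostly methylated blocks 68 were called, 54 higher and 14 lower, against 15.8% of all dense blocks (9.57% higher and 6.2% lower). The blocks on chromosomes 5 and 1 described above are among the named blocks here as well, with the MFP metastases at the level of the tumors in the block on chromosome 5. The site count was 44 (all higher) without tumor 1, 36 (all higher) without tumor 2, 71 without MFP metastasis 2 or 3, 70 without TVI metastasis 2 and 59 without TVI metastasis 3, and the block count was 30 and 14 without tumor 1 and 2. With quantile normalization 25 sites were higher and 22 lower, and 30 blocks higher and 19 lower. On a log2 ratio scale 17 sites were higher and 31 lower, so that the direction of the site calls depended on the scale. With the replicate number as a block, 44 sites and 44 blocks were called.

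At the limits of the rule there was no gap. The sites nearest 80% inside were on chromosome 10 at 80607117 and on chromosome 11 at 5163195 and 59141365, each with a lowest sample of 80%, and those nearest outside were on chromosome 11 at 77329564 and 103672142 and on chromosome 16 at 10788388, each with a lowest sample of 79.9%. In all, 123 methylated dense sites had their lowest sample between 80% and 81%, and 96 dense sites between 79% and 80%. With exactly 16 other sites within 250 bp there were 1458 methylated dense sites, and with 15 there were 1952 sites at 80% or more in all samples. Of the dense sites outside the set, 354 missed it in a single sample, and 383 missed it in the 3 TVI metastases and in no other sample, against 11 for the 3 MFP metastases. The opposite also occurred: 193 dense sites were at 80% or more in the 3 TVI metastases and below it in the other 5 samples.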

How the data were processed

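DNA methylation of 8 samples (2 primary tumors, 3 MFP and 3 TVI lung metastases) was read from a single table of beta values deposited by the authors, each the fraction (0 to 1) of methylated calls at a site, per the file headers. Tools named in the submitters' processing notes are Trimmomatic and Bismark, and the build named there is mm10. No version, coverage, filter or choice of positions is given in the sources used here, and the table held no read counts, so precision is judged from the spread between samples alone. Levels are printed in percent. The members and the lists were chosen with earlier results of these data known.

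Dense sites, blocks (dense sites joined at gaps of up to 250 bp) and levels were computed in Python 3 with numpy and pandas. The model was limma (3.58.1, R 4.3.3) on the fractions, with a variance trend and 1 mean per group over all 8 samples, at the 135914 sites with any variation, and likewise block means at the 1097 blocks of at least 3 sites. Tests were two-sided, with p adjusted by Benjamini-Hochberg over all sites or all blocks, with a threshold of 0.05, and the procedure was tested on simulated data. Named were the 10 blocks with most methylated dense sites, the 5 blocks with most sites of the rarer kind, the 3 largest rises and falls among called sites and among called mostly methylated blocks per comparison, and the 3 sites nearest 80% on either side. From these, the text gives in full those that show a pattern most plainly. Genes named are those whose matched window held methylated dense sites, and further ones (Fzd1, Selenom, Fos, Eif2b2, Tm7sf2) chosen after their values were seen.

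Promoter windows from RefSeq (GRCm38.p6) with at least 8 CG dinucleotides were slid along the deposited positions of their chromosome, from 3 Mb back to 9 Mb forward. A window was matched where at least 8 CG and 70% of its CG, and 70% of the sites in its span, fell together at a single shift that led the next best by at least 3. The shift differed between chromosomes, and 130 of 158 matched windows shared theirs, within 5 bp, with a window of another gene. No coordinates were converted. The germline gene list written for a reference of the same build was not used here. Alternatives changed the density, window, level, block gap, normalization, scale, variance trend, samples in the fit, a filter on range, the replicate block and each sample. Stricter and looser promoter matching and the repeat search were chosen after seeing the data.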

Additional observations from a re-analysis of the deposited data

Results flagged for a closer look

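The results here are those in which TVI and MFP lung metastases differed in the limma test at an adjusted p under 0.05. They are 328 methylated dense sites and 113 mostly methylated blocks, beside 16.9% of all sites and 28.9% of all dense blocks. Differences below are TVI minus MFP metastases in points.

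Among single sites, the largest rises were 13 on chromosome 1 at 82286382, 12.1 on chromosome 19 at 4867863 and 11.8 on chromosome 2 at 172704890. The largest falls were -17.8 on chromosome 2 at 25145794, -16.5 on chromosome 10 at 127003608 and -15.9 on chromosome 9 at 107579536. At the site on chromosome 10 the TVI metastases were at 80.95%, 80.95% and 81.2% and the MFP metastases at 97.6%, 95.1% and 100%, with no overlap.

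Among blocks, the largest rises were 20 on chromosome 8 from 126167448, 16.1 on chromosome 5 from 141082243 and 13.3 on chromosome 17 from 31598404. The first has 3 dense sites, 2 of them methylated in every sample, and the other site went from 10.5% to 60.2%. The block on chromosome 17 was at 75.4%, 76.9% and 75.8% in MFP and at 89.0%, 89.2% and 89.8% in TVI metastases. The largest falls were -16.6 on chromosome 1 from 64782806, -11.7 on chromosome 17 from 25857938 and -11 on chromosome 11 from 103670649. In the last of these the methylated dense sites averaged 96.4% in MFP and 91.3% in TVI metastases, and the other sites 88.5% and 68.6%. What part the cell mix of the samples has in these differences was not tested.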

How the results depend on the processing

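The number of methylated dense sites followed the density rule: it was 19688 with 12 other sites, 4321 with 20 and 5394 with a window of 200 bp. It was 6035 to 9737 with levels from 90% to 70%, and leaving out single samples gave 8914 to 8979 sites and 702 to 705 blocks. TVI against MFP metastases gave 222 to 333 sites and 87 to 115 blocks with single samples left out. MFP metastases against tumors gave 0 sites with the replicate block, on the log2 ratio scale and with the compared groups alone, 3 with a range filter of 0.05, and 0 without any single sample, with 668 to 767 at an unadjusted p under 0.05 in limma. Blocks stayed at 0 by limma in every alternative run. TVI metastases against tumors gave 215 to 356 sites and 86 to 120 blocks with single samples left out, and 270 to 372 sites and at most 127 blocks under the other alternatives. All metastases against tumors gave 44 sites with the replicate block, 47 with quantile normalization, 48 on the log2 ratio scale, and 36 to 86 without single samples. The blocks were 44 with the replicate block and 14 to 70 without single samples. The cause was not tested. Of 37 called named results, 27 kept their call in every alternative run, and none reversed. With 10 CG, 90% matched or 6 CG, 11, 10 and 12 promoter windows held methylated dense sites.

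Correlations of deviations from the group means ran from -0.0037 to 0.0172 between samples with the same number. Between samples with different numbers they ran from -0.0172 to 0.0073. The deviations of the 2 tumors mirror each other, so each correlation with 1 tumor has an equal one of opposite sign with the other. Such small values cannot tell whether samples with the same number share an animal or a batch. With the replicate block, TVI against MFP metastases gave 304 sites and 100 blocks, and TVI metastases against tumors 270 and 105. Unknown depth limits every value, since no counting error could be given.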
